A study of Mus musculus with 6 samples.

Results

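A set of 10 genes that mark resident Kupffer cells in mouse liver were examined in animals fed a NASH diet: Clec4f, Timd4, Marco, Vsig4, Cd5l, Adgre1, Cd163, Folr2, Csf1r and Mrc1. They were chosen by symbol, with their control and Blnc1 LKO values in the same table already known, and all 10 were found among its 17460 rows. The 6 libraries came from C57BL/6 livers of mice 9 months old, of which 3 were control and 3 Blnc1 LKO, all fed NASH diet for 24 weeks. In the study's LKO design, mice that carry a constitutive Cas9 transgene receive an adenovirus that expresses sgRNAs against the lncRNA Blnc1, and for its high-fat diet cohort controls receive a GFP adenovirus. The study describes the non-parenchymal cells of the liver, the fraction that holds Kupffer cells, as poorly transduced, and whether Kupffer cells took up the vector or were edited was not measured here. The table holds no row named Blnc1, so its loss was not measured here. The labels do not give the sex of the mice. The files hold 65384969 to 89350181 reads on listed genes per liver.

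Kupffer cells are the macrophages that live in the liver sinusoids. They are seeded before birth, renew themselves in place, and clear bacteria, old red cells and dying cells from the portal blood. In steatohepatitis part of this population is lost and blood monocytes enter the niche, where they take on Kupffer cell genes step by step. TIM-4, the product of Timd4, is gained late and marks long-resident cells, whereas CLEC4F appears early. F4/80 and the CSF1 receptor are shared by most macrophages, and the mannose receptor is also made by sinusoidal endothelial cells.

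The members fell into a part that differed widely between livers and a part that was nearly level. Marco, Timd4, Vsig4, Clec4f and Cd163 had means in Blnc1 LKO livers of 9.75, 2.36, 2.02, 1.36 and 1.48 times those of control livers. For Cd5l, Adgre1, Folr2, Csf1r and Mrc1 the ratio of means lay between 0.980 and 1.11. This division was drawn after the values were seen. Within the first part, Blnc1 LKO replicates 1 and 3 carried the high values, and replicate 2 lay near the control livers. Values are reads per gene divided by the authors' size factor for the liver. In bulk liver, more cells of a type and more RNA per cell cannot be told apart.

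The control against Blnc1 LKO comparison was known when these 10 genes were chosen, so their differences are described and not tested. After adjustment over the 17297 genes tested, limma called 0 of 10 members at 0.05 and 0.00578% of all genes. The count was also 0 of 10 in voom, in edgeR (0.0116% of genes) and in DESeq2 on the recovered reads (0.538% of the 15617 genes with an adjusted p). At an unadjusted p under 0.05 there were 5 members with a higher mean in Blnc1 LKO livers, against 2.94% of all genes, and 0 with a lower mean, against 2.74%. In Marco and Adgre1, all 3 Blnc1 LKO livers lay above all 3 control livers, an arrangement held by 5.35% of genes. No member showed the opposite arrangement, which 5.28% of genes held. The median log2 fold change was 0.30 over the 10 members and −0.00099 over all genes tested, on the log2(value + 1) scale. It was 0.15 over the 9 members other than Marco, a set taken after the values were seen.

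**Figure D1:**
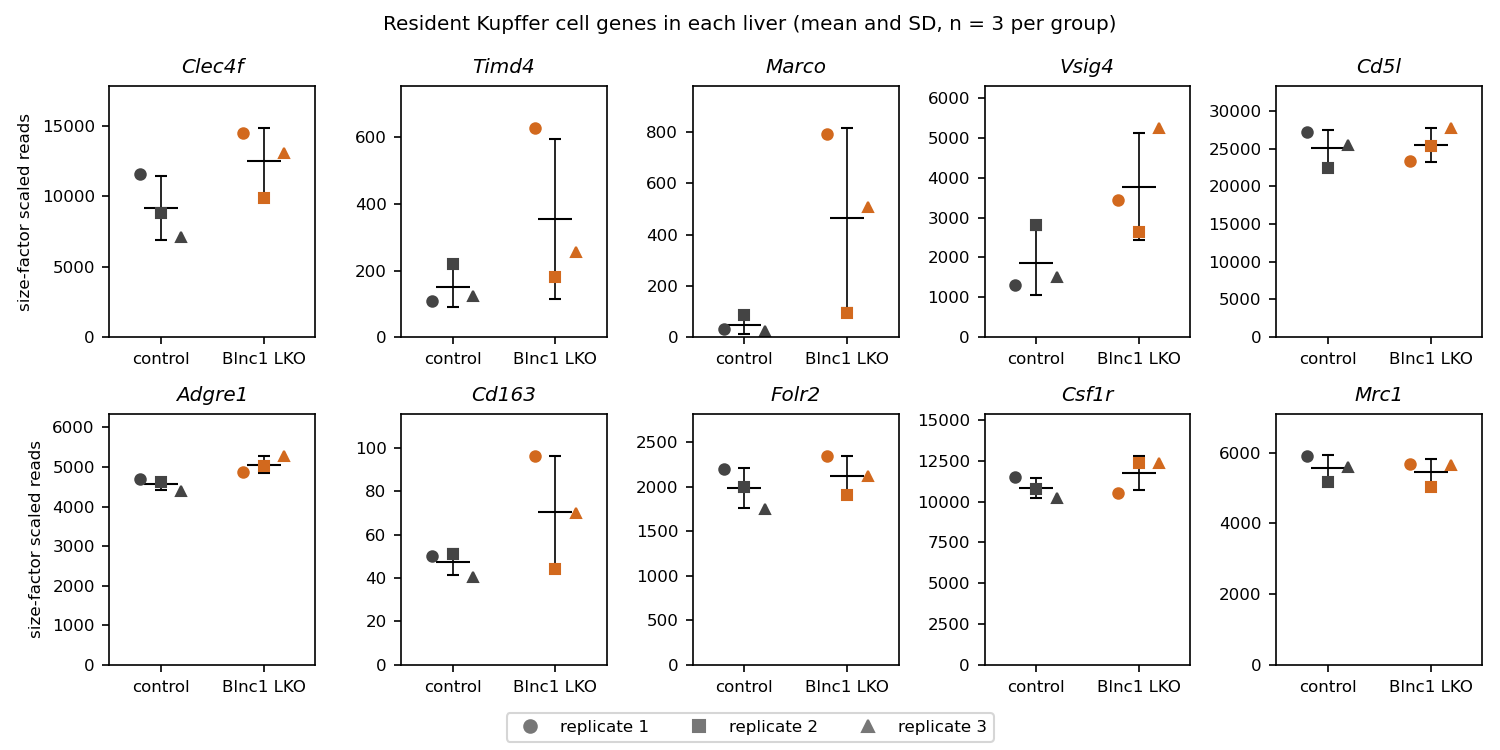
Size-factor scaled reads (vertical axes, each from 0) of the 10 members in 3 control and 3 Blnc1 LKO livers, with 1 point per liver, the mean as a long dash and the SD as a bar. Marco reaches 794 and 509 in Blnc1 LKO replicates 1 and 3 and 95.8 in replicate 2. The groups overlap for every member other than Marco and Adgre1.

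The promoter windows of the 4 members with the highest values in the LKO group relative to control, other than the low gene Cd163, are shown because these genes were high in the same livers. Each runs from 250 bases before to 50 bases after the RefSeq gene start (GRCm38.p6). They lie at chr1:120504975-120505274 (− strand), chrX:96293389-96293688 (− strand), chr11:46810549-46810848 (+ strand) and chr6:83656067-83656366 (− strand). Capitals mark GAGGAA, the core bound by the macrophage factor PU.1, and AGGTCA, the half-site of nuclear receptors such as LXR, on either strand.
Marco promoter: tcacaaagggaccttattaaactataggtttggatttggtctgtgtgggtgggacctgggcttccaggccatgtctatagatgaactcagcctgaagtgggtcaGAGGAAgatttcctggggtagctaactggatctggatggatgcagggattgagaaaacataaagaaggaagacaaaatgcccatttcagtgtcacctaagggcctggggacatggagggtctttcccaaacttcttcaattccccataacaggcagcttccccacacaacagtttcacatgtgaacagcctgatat
Vsig4 promoter: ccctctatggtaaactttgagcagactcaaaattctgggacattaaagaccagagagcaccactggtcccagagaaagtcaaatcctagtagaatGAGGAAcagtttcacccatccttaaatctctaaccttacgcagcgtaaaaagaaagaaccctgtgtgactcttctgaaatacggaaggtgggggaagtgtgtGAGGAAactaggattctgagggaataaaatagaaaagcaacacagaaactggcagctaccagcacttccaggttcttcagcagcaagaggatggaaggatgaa
Timd4 promoter: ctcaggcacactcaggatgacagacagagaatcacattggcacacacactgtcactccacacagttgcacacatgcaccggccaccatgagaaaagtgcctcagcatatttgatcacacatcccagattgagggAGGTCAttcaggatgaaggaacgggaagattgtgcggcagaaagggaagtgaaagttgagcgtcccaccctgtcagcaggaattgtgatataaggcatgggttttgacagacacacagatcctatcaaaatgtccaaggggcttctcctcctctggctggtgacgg
Clec4f promoter: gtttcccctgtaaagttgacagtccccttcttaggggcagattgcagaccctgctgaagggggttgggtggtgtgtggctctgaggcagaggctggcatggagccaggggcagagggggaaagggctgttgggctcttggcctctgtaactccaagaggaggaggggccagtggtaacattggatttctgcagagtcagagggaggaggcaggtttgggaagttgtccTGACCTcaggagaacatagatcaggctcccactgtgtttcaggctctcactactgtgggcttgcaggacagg

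Marco held 1 match to GAGGAA and Vsig4 held 2, whereas Timd4 and Clec4f held none. For AGGTCA the order was turned around, with 1 match each in Timd4 and Clec4f and none in Marco or Vsig4. RefSeq windows outside chromosome 18 were found for 8 of the 10 members. These 8 members had 9 windows, with more than 1 for Folr2. GAGGAA was present in 4 of 9 windows (4 of 8 members), against 28.3% of 32851 promoter windows of the same length. AGGTCA was in 2 of 9 windows (2 of 8 members), against 16.3%. TGCTGA, a half-site of the MAF factors, was in 6 of 9 windows (5 of 8 members), against 19.5%. TCANGTG, read by the TFEC family, was in 0 of 9 (14.3%). The motifs were chosen after the sequences were seen, so these shares are described and not tested. Matches of GAGGAA and AGGTCA overlapped in 0 of the member windows. A match describes the letters alone, and binding was not measured.

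Marco encodes a class A scavenger receptor that binds bacteria and particles. Its gene is at chromosome 1, 120474538 to 120505024 (GRCm38, − strand). Marco measured 32.6, 87.4 and 23.4 in the controls against 794, 95.8 and 509 in the LKO group. Replicates 1 and 3 of the LKO group stood far above every control liver, and the gap between the lowest LKO and the highest control value was narrow. The means were 47.8 ± 34.6 (SD, n = 3 livers) in control and 466 ± 351 (SD, n = 3) in Blnc1 LKO livers. The log2 fold change was 3.03 (standard error 0.75, 95% interval 1.31 to 4.74, limma), the largest among the 10 members. Marco rested on few reads in the control livers. There were 35, 82 and 22 reads, with exact Poisson intervals of 24.4 to 48.7, 65.2 to 102 and 13.8 to 33.3. Blnc1 LKO replicate 2 had 102 reads, with an interval of 83.2 to 124 that overlaps the one of control replicate 2. These intervals cover counting error only. The separation of the groups depends on this pair of livers.

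Timd4 encodes a phosphatidylserine receptor by which macrophages hold apoptotic cells. Its gene is at chromosome 11, 46810800 to 46844332 (GRCm38, + strand). Timd4 measured 109, 218 and 124 in the controls against 628, 181 and 257 in the LKO group. The groups overlapped, since Blnc1 LKO replicate 2 lay below control replicate 2, and replicate 1 stood alone at the top. The means were 150 ± 59.4 and 355 ± 239 (SD, n = 3 each). The log2 fold change was 1.10 (standard error 0.43, 95% interval 0.11 to 2.09), and it was 0.59 without Blnc1 LKO replicate 1.

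Vsig4 encodes CRIg, the complement receptor with which Kupffer cells catch opsonized bacteria. Its gene is at chromosome X, 96247203 to 96293438 (GRCm38, − strand). Vsig4 measured 1296, 2803 and 1504 in the controls against 3432, 2640 and 5249 in the LKO group. As for Timd4, the highest control liver was replicate 2 and it lay above Blnc1 LKO replicate 2. Means of 1868 ± 817 and 3774 ± 1337 (SD, n = 3 each) resulted. The log2 fold change was 1.04 (standard error 0.31, 95% interval 0.33 to 1.75). Among control livers alone, Marco, Timd4 and Vsig4 were each highest in replicate 2, by a factor of 3.73, 2.0 and 2.16 over the lowest control liver.

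Clec4f encodes a C-type lectin that binds galactose-bearing glycans and, in mouse, is the most specific Kupffer cell marker. Its gene is at chromosome 6, 83644542 to 83656187 (GRCm38, − strand). Clec4f measured 11585, 8819 and 7087 in the controls against 14503, 9864 and 13120 in the LKO group. Replicates 1 and 3 of the LKO group exceeded every control liver, and replicate 2 fell inside the control range. Means were 9164 ± 2269 and 12496 ± 2382 (SD, n = 3 each). The log2 fold change was 0.46 (standard error 0.19, 95% interval 0.03 to 0.88), and it was 0.29 without control replicate 3. Unlike Marco, Timd4 and Vsig4, Clec4f was not highest in control replicate 2.

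Cd163, the receptor for haemoglobin bound to haptoglobin, was the lowest of the members per exon length. Its gene is at chromosome 6, 124304656 to 124330527 (GRCm38, + strand). Cd163 measured 50.3, 51.1 and 40.5 in the controls against 96.4, 44.2 and 70.2 in the LKO group. The order among LKO livers was the one seen for Marco, Timd4 and Clec4f, with replicate 1 highest and replicate 2 lowest. With 38 to 84 reads per liver, the log2 fold change of 0.50 had a 95% interval from −0.16 to 1.15, and without Blnc1 LKO replicate 1 it was 0.24.

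The remaining members were close to level. Cd5l encodes AIM, a secreted scavenger-receptor protein that macrophages make under LXR control, with its gene at chromosome 3, 87357881 to 87371073 (GRCm38, + strand). Cd5l measured 27220, 22426 and 25544 in the controls against 23328, 25291 and 27752 in the LKO group. The ranges covered each other almost entirely, with a 95% interval of the log2 fold change from −0.18 to 0.23. Adgre1, which encodes F4/80 with its gene at chromosome 17, 57358691 to 57483527 (GRCm38, + strand), was more even still. Adgre1 measured 4694, 4615 and 4393 in the controls against 4867, 5015 and 5287 in the LKO group. The groups did not overlap, although the log2 fold change was only 0.15 (standard error 0.055, 95% interval 0.02 to 0.27). For its high-fat diet cohort the study reported the other direction, with lower Adgre1 in LKO livers by qPCR. Diet and method differ from those here. F4/80 is also carried by eosinophils, and the 4 eosinophil markers summed to 128 to 139 in control and 129 to 331 in Blnc1 LKO livers. Of these, Epx was at 0 in 2 control livers and highest, at 23.4, in Blnc1 LKO replicate 3, the liver with the highest Adgre1. Epx rested on 0 to 28 reads per liver. In the list, 2 markers had a higher and 2 a lower mean, with Siglecf at −0.03 and Ccr3 at −0.11 on the log2 scale. The part of eosinophils in the Adgre1 values was not tested.

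Csf1r encodes the receptor for CSF1 and IL-34 on which Kupffer cells depend for survival, with its gene at chromosome 18, 61100598 to 61132149 (GRCm38, + strand). Csf1r measured 11496, 10804 and 10225 in the controls against 10545, 12362 and 12385 in the LKO group, and the groups overlapped. The 95% interval of its log2 fold change was −0.06 to 0.29. Folr2, a folate receptor of resident macrophages at chromosome 7, 101839988 to 101857194 (GRCm38, − strand), ranged from 1747 to 2199 in control and from 1905 to 2347 in Blnc1 LKO livers. Its 95% interval was −0.13 to 0.33. Mrc1, the mannose receptor at chromosome 2, 14229392 to 14332057 (GRCm38, + strand), ranged from 5164 to 5919 and from 5025 to 5669. Mrc1 was the member with a lower mean in Blnc1 LKO livers, by a log2 fold change of −0.03 (95% interval −0.19 to 0.13). The intervals of Cd5l, Csf1r, Folr2 and Mrc1 reach from −0.19 to 0.33 on the log2 scale, which does not show that the groups were alike. GENCODE lists genes that overlap Folr2 and Csf1r on the other strand, and the strand setting of the counting is not given in the sources used here, so reads of such partners cannot be told apart.

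**Figure D2:**
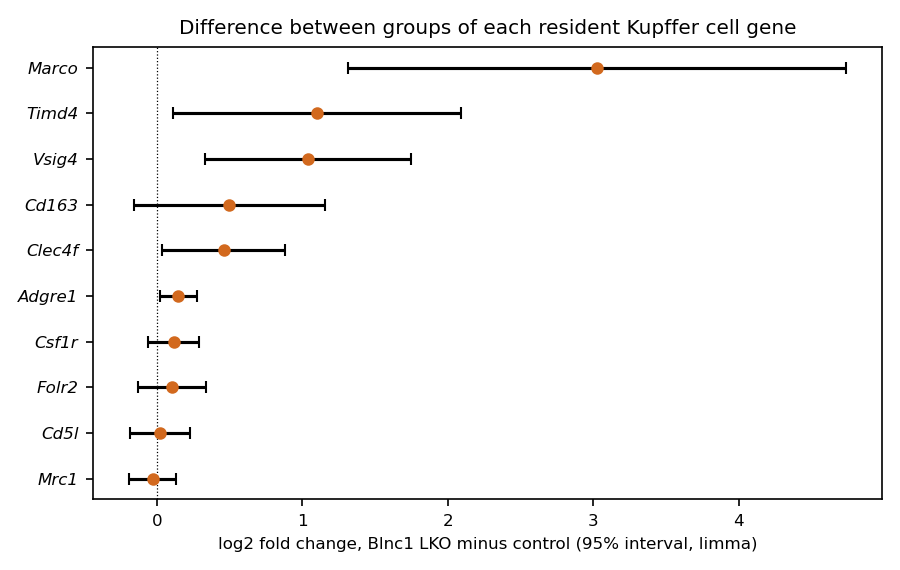
Log2 fold change of each member, Blnc1 LKO minus control (horizontal axis), with the 95% interval of the limma fit as a bar, not adjusted for the number of genes. The interval of Marco runs from 1.31 to 4.74, whereas those of Mrc1, Cd5l, Folr2, Csf1r and Cd163 include 0.

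Levels of different genes were compared as RPKM, computed from the recovered reads, the exon length and the total reads on listed genes. In control livers Cd5l was highest at 166 ± 15.9 (SD, n = 3), followed by Clec4f at 49.95 ± 12.5, Csf1r at 25.3 ± 1.58 and Adgre1 at 19.0 ± 0.741 (SD, n = 3 each). Neighbours among these 4 did not overlap. Adgre1, Folr2 (17.3 ± 2.04), Vsig4 (17.0 ± 7.47) and Mrc1 (11.8 ± 0.790, SD, n = 3 each) followed, and neighbours in this stretch overlapped. Timd4 (0.932 ± 0.371), Marco (0.335 ± 0.243) and Cd163 (0.117 ± 0.0152, SD, n = 3 each) came last, and the ranges of neighbours did not overlap. Timd4 thus stood well below Clec4f per length in control livers, and also in Blnc1 LKO livers (2.16 against 67.5). Levels of different genes do not give the share of long-resident cells.

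The order changed at a pair of places in Blnc1 LKO livers. Vsig4 moved from the sixth to the third place at 34.0 ± 11.8 (SD, n = 3), where it overlapped Csf1r at 27.4 ± 3.46 (SD, n = 3). Marco, at 3.18 ± 2.32, passed Timd4, at 2.16 ± 1.37 (SD, n = 3 each), again with overlapping ranges. Cd5l stayed first at 168 ± 18.4 and Cd163 last at 0.171 ± 0.0568 (SD, n = 3 each). The level of Cd5l was 495 times that of Marco in control livers and 52.8 times in Blnc1 LKO livers, from the group means per length.

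**Figure D3:**
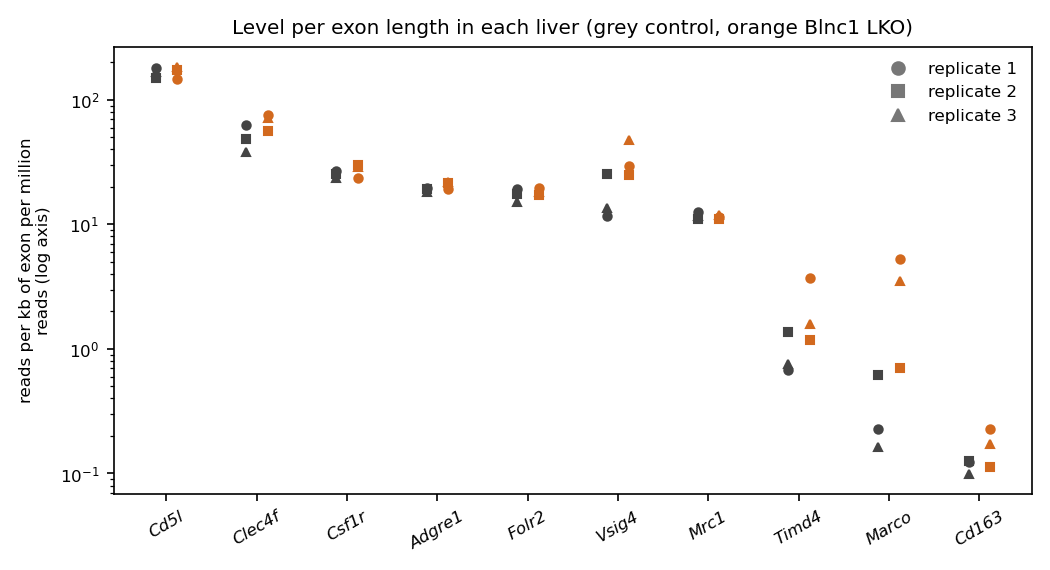
RPKM from the recovered reads (log vertical axis) of the 10 members, ordered by their control mean, with 1 point per liver and the symbol giving the replicate number. Members from Cd5l to Mrc1 lie above 10, and Timd4, Marco and Cd163 lie below 6 in all livers and are the most widely spread relative to their level, together with Vsig4.

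To see the members against the macrophages of the same liver, the mean log2 value of 13 general macrophage genes, such as Cd68 and Tyrobp, was subtracted from that of each member. On this scale Marco stood at −7.22, −5.79 and −7.61 in the controls and at −2.40, −5.73 and −3.29 in the LKO group. Timd4 stood at −5.51, −4.48 and −5.26 and at −2.74, −4.82 and −4.28. Both remained in the same order of livers as before the subtraction. The difference between group means was 3.06 for Marco, 1.14 for Timd4, 1.08 for Vsig4 and 0.50 for Clec4f, and 0.01 for Mrc1. All LKO livers lay above all control livers for Marco, Adgre1 and Csf1r. The share of all genes with this arrangement was not computed on the subtracted scale. Csf1r overlapped before the subtraction, with Blnc1 LKO replicate 1 at 10545, inside the control range of 10225 to 11496. Blnc1 LKO replicate 1 had the lowest sum of the 13 general genes, at 96396 against 107777 to 113663 in the other livers. Marco, Timd4 and Clec4f were highest in this liver, and so were the summed hepatocyte markers. Blnc1 LKO replicate 3, also high in Marco, had a general sum of 107777, against 107958 to 109071 in control livers. The part of macrophage number in the members' values was not tested.

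Other genes of Kupffer cells, of their niche and of general, lipid-associated or monocyte-derived macrophages were read from 7 lists with 80 genes, of which all were tested. None passed an adjusted p under 0.05 in limma, edgeR or voom, and 1 of 80 passed in DESeq2. Over all genes, DESeq2 called 0.538% of those with an adjusted p, limma 0.00578% and edgeR 0.0116%. At an unadjusted p under 0.05, 5 of 80 were higher and 7 lower in Blnc1 LKO livers (limma), where 2.94% and 2.74% of all genes were. The groups did not overlap for 15 of them, 5 higher and 10 lower, against 5.35% and 5.28% of all genes. The median log2 fold change was below 0 in each of the 7 lists.

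Among 12 other Kupffer cell enriched genes, 5 had a higher and 7 a lower mean, with a median log2 fold change of −0.04. In 3 of the 12, all LKO livers lay above all control livers, against 5.35% of all genes. Fcna, which encodes the complement lectin ficolin A, had 2549, 2576 and 2252 in control and 3855, 2964 and 3406 in Blnc1 LKO livers. Every LKO liver lay above every control liver. The difference was 0.47 on the log2 scale (standard error 0.099), with an adjusted p of 0.548 in limma and 0.00732 in DESeq2, which called no other gene of the 7 lists. The iron exporter gene Slc40a1 (0.29, standard error 0.10) and the heme oxygenase gene Hmox1 (0.53, standard error 0.19) had the same arrangement with adjusted p of 0.824 and 0.831 in limma, and Hmox1 reached 8018 in Blnc1 LKO replicate 3 alone. Ccl24, a chemokine gene, had 182 to 215 in control and 133 to 167 in Blnc1 LKO livers, with a log2 fold change of −0.37 (adjusted p = 0.842, limma). The complement genes C1qa, C1qb and C1qc, chosen after their values were seen, had log2 fold changes of −0.03, −0.05 and −0.07. Summed over the list, all LKO livers lay above all control livers, at 98219 to 111468 against 88523 to 94646. Of the difference of 11171 between the mean sums, C6 gave 5477, Slc40a1 3269 and Hmox1 1918. C6, a complement component gene named here after its values were seen, overlapped between the groups, at 14349 to 21230 and 19105 to 27869.

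Of 12 Kupffer cell transcription factors, 5 had a higher and 7 a lower mean, with a median log2 fold change of −0.02. Spic, a PU.1-related factor of macrophages that recycle iron, had 271, 191 and 189 in control and 321, 287 and 312 in Blnc1 LKO livers. All LKO livers were above all control livers, a difference of 0.52 on the log2 scale (standard error 0.16) that limma did not call (adjusted p = 0.739). Nr1h3, which encodes LXRα and is also made by hepatocytes, differed by 0.08 (standard error 0.051), with 8451 to 8772 in control and 8846 to 9489 in Blnc1 LKO livers. Zeb2 and Tfec were lower in all LKO livers than in all control livers, by log2 fold changes of −0.12 and −0.20 (adjusted p = 0.879 and 0.899, limma).

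Of 10 genes for signals of the niche, 3 had a higher and 7 a lower mean, with a median log2 fold change of −0.08. Dll4, the Notch ligand of sinusoidal endothelium, had 691 to 712 in control and 575 to 661 in Blnc1 LKO livers (−0.19, standard error 0.080, adjusted p = 0.870, limma). Gdf2, which encodes BMP9 from stellate cells, had the smallest p among those with a higher mean (0.11, adjusted p = 0.968, limma). Of 11 engulfment and scavenger genes, 9 had a lower mean, with a median of −0.06. Summed over this list, all LKO livers lay below all control livers, at 106290 to 112749 against 113501 to 114658. Abundant genes weigh most in this sum. Cd36, the most abundant of the list and named here after its values were seen, overlapped between the groups, at 32804 to 34213 and 29247 to 34181. Stab1 and Pros1 were lower in all LKO livers, by −0.15 and −0.11 on the log2 scale, while Stab2 had a difference of 0.06 (adjusted p = 0.857, 0.891 and 0.973, limma).

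General macrophage genes had a median log2 fold change of −0.07 over 13 genes. Their mean log2 level above the control mean was −0.22, 0.07 and 0.03 in Blnc1 LKO replicates 1, 2 and 3, so only replicate 1 was lower. Mpeg1 was lower in all LKO livers (−0.11) and Ptprc had the smallest p among those with a higher mean (0.15, adjusted p = 0.924 and 0.951, limma). Lipid-associated macrophage genes had a lower mean in 11 of 12, with a median of −0.16. Lgals3, which encodes galectin-3, had 5628, 5052 and 5529 in control and 2831, 4872 and 3159 in Blnc1 LKO livers (−0.62, standard error 0.17, adjusted p = 0.700, limma). The low livers were again replicates 1 and 3. In this list Ctsb was also lower in all LKO livers (−0.10), and Fabp5 had the difference in the other direction (0.14). Monocyte-derived cell genes had a median of −0.16, with 6 of 10 lower. Their mean log2 level above the control mean was −0.41, −0.05 and 0.13 in Blnc1 LKO replicates 1, 2 and 3, so the lower level came mainly from replicate 1. Ccr2, the receptor that brings monocytes to the liver, had 2185 to 2423 in control and 1620 to 1994 in Blnc1 LKO livers (−0.33, standard error 0.087, adjusted p = 0.619, limma), and Ly6c2 had a difference of 0.12.

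**Figure D4:**
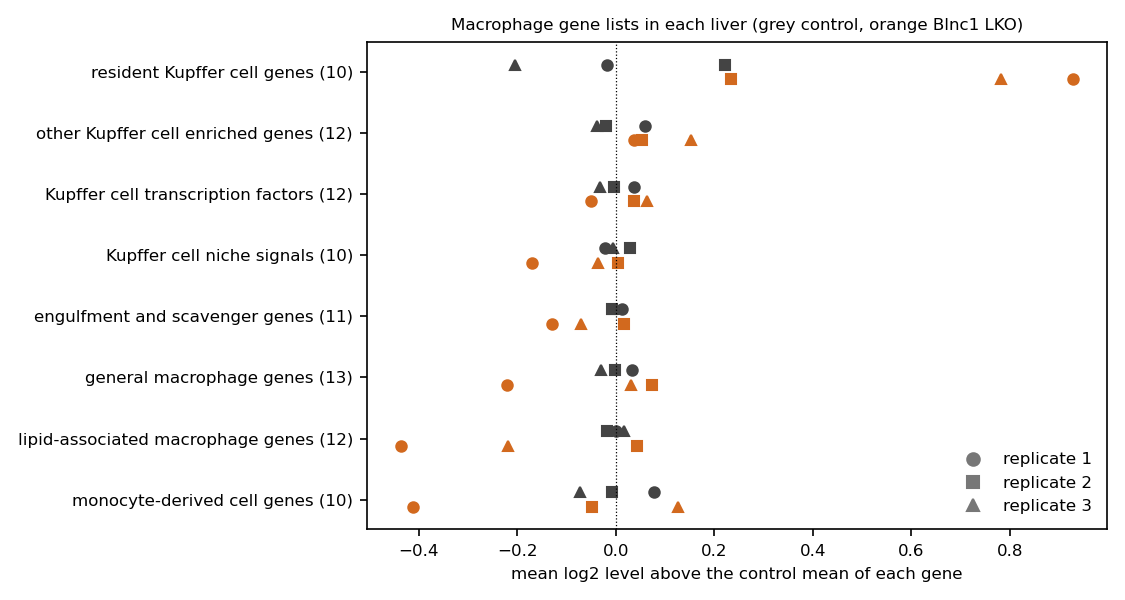
Mean over the genes of each list of the log2 value above that gene's control mean (horizontal axis), with 1 point per liver and the number of genes in brackets. The resident Kupffer cell genes reach 0.93 and 0.78 in Blnc1 LKO replicates 1 and 3, where the lipid-associated list is at −0.44 and −0.22, and the same lists stand at 0.23 and 0.04 in replicate 2. Without Marco the other 9 members average 0.56 and 0.47 in replicates 1 and 3 and 0.12 in replicate 2.

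Markers of other liver cells were read from 9 lists, in which limma and edgeR called no gene and DESeq2 called 4. These were 1 of 8 hepatocyte, 2 of 7 stellate cell and 1 of 4 eosinophil markers. Over all genes, DESeq2 called 0.538% of those with an adjusted p, limma 0.00578% and edgeR 0.0116%. The 5 neutrophil markers found in the table summed to 5137 in Blnc1 LKO replicate 3 and to 1034 to 1601 in the other livers, led by S100a9. The 8 sinusoidal endothelial markers, which matter for Mrc1, summed to 30867 to 33580 in control and 30096 to 32012 in Blnc1 LKO livers. Within that list Lyve1 (−0.57) and Pecam1 (−0.17) had unadjusted p under 0.05 and a lower mean in the LKO group. Hepatocyte markers had a median log2 fold change of 0.008 over the 8 genes found, stellate cell markers −0.06 over 7 and cholangiocyte markers −0.04 over 5. The summed hepatocyte markers were highest in Blnc1 LKO replicate 1, at 7205990 against 5972470 to 6611640 in the other livers. T and NK, B and dendritic cell markers had medians of −0.16, 0.08 and 0.04. Neutrophil and eosinophil markers had medians of 0.23 and 1.24, with a higher mean in 3 of 5 and 2 of 4 genes. The eosinophil median lies between Siglecf (−0.03) and Prg2 (2.51).

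Single markers by the naming rule were as follows. DESeq2 called the cytochrome gene Cyp2e1 (0.40 on the log2 scale in limma, all LKO livers above all control livers) and the stellate cell genes Rgs5 (−0.29) and Col1a1 (−0.61), with all LKO livers below all control livers. It also called the eosinophil granule gene Prg2 (2.51), with 4.26 to 14.0 in control and 24.4 to 146 in Blnc1 LKO livers. The adjusted p of these 4 genes was 0.0324, 0.0492, 0.00462 and 0.00577 in DESeq2 and 0.548 to 0.851 in limma. Values on the same log2 scale for genes that neither tool called were −0.18 for Arg1, 0.16 for Lrat, 0.03 for Krt19, −0.06 for Sox9, 0.83 for Klrb1c and −0.29 for Cd3e. They were 0.32 for Cd79b, −0.02 for Ms4a1, −0.08 for Csf3r, 0.29 for Ccr9, −0.08 for Xcr1 and −0.11 for Ccr3. The part of these cells in the members' values was not tested.

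Genes were ranked by the root mean square distance of their log2 profile over the 6 livers, centred on its own mean, from the mean profile of the members. That profile stood at −0.34, −0.10 and −0.53 in the controls and at 0.60, −0.09 and 0.46 in the LKO group. Among 12479 genes with a mean value of at least 100, the 8 nearest were Npr2, Nudt7, Gpcpd1, Aatk, Spag4, Siglece, Gria3 and Fpr1, at distances of 0.108 to 0.149 log2 units. The members' profile itself differs between the groups, so genes picked for lying near it differ in the same way by selection. Their log2 fold changes ran from 0.40 for Spag4 to 0.80 for Aatk. Siglece, a sialic-acid binding receptor of myeloid cells, had 449, 503 and 348 in control and 750, 566 and 890 in Blnc1 LKO livers. Fpr1, the formyl peptide receptor of phagocytes, had 277, 276 and 208 and then 490, 365 and 401. Nudt7, which encodes a peroxisomal enzyme that cleaves coenzyme A, had 25673 to 33927 in control and 37380 to 48930 in Blnc1 LKO livers. Marco varied most among the members (root mean square of its centred profile 1.86 log2 units, against 0.406 for the mean profile). Every member lay farther from the mean profile than the 8 genes, from 0.158 log2 units for Cd163 to 1.45 for Marco. Cd5l, Adgre1, Folr2, Csf1r and Mrc1 lay at 0.323 to 0.434 log2 units. Clec4f lay at 0.222, Vsig4 at 0.388 and Timd4 at 0.487. With Marco left out, a choice made after the values were seen, 1 of the 8 nearest genes was shared (Spag4). The others were then 9330020H09Rik, Slc10a1, Fcna, Pex26, Cyp2u1, Slc1a2 and Ginm1, and Siglece and Fpr1 were no longer among the 8. The ranking is a description and not a likeness to each member.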

How the data were processed

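PolyA-selected liver mRNA was sequenced in 3 control and 3 Blnc1 LKO liver libraries. Per the labels' processing notes the authors used FastQC, STAR, HTSeq and DESeq2, with genome build mm10. Versions, annotation, strand setting and filters are not given in the sources used here. The deposited signal is a read count that was scaled by 1 size factor for each liver. Its columns, named WT and KO with a number, were matched to the control and LKO samples of that number. The labels number the livers without naming animals, so p-values measure only the spread between these samples, which may be technical.

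The 10 members and the gene lists were chosen with earlier results of these data known, and the promoter motifs after the sequences were seen. limma (version 3.58.1, R 4.3.3; lmFit, then eBayes with trend) took log2(value + 1) and no covariates. It covered 17297 genes that reached a value of 1 in 3 or more livers. This scale understates changes of low genes. Adjusted p-values are Benjamini-Hochberg over all genes, with a threshold of 0.05. An exact permutation test of 3 against 3 livers cannot go below p = 0.1, so none was used. Named genes are the members, the list genes of smallest p in each direction or without overlap between groups, and the 8 nearest profiles.

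Dividing by the smallest value above 0 of a column gave whole reads (within 0.01) for 100% of values, and 65384969 to 89350181 reads per liver. These were used for edgeR (version 4.0.16; quasi-likelihood, TMM; 2 genes called), DESeq2 (version 1.42.0; 84 genes) and voom. Pairs of livers within a group differed beyond counting noise (chi-square per degree of freedom 20.8 to 70.0). Fits were tested on simulated data. Lengths are unions of GENCODE M21 exons (GRCm38, the same build as mm10), and promoters are from RefSeq.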

Additional observations from a re-analysis of the deposited data

How the results depend on the processing

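Over all genes, limma called 1 gene. The count was 1 with a pseudocount of 0.1, with at least 10 reads in every liver, with library size as the only scaling and in voom, 2 without a filter on low values and 2 in edgeR. On recovered reads, DESeq2 called 84. Leaving out 1 liver at a time, the limma count ranged from 0 (without control replicate 1) to 13 (without Blnc1 LKO replicate 2), with 3 without control replicate 2 and 2 without Blnc1 LKO replicate 1. Of the 80 genes of the other macrophage lists, DESeq2 called 1 (Fcna), and leaving out livers gave 0 to 1 (Lgals3, without Blnc1 LKO replicate 2). The cause was not tested. No member was called in any of the 14 alternative fits.

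The median log2 fold change of the members lay between 0.296 and 0.303 under other settings of the fit, between 0.203 and 0.398 with livers left out, and at 0.146 over the members other than Marco, an alternative added after seeing the data. Marco lay between 2.41 and 3.93, Timd4 between 0.586 and 1.48, Vsig4 between 0.773 and 1.38, Clec4f between 0.287 and 0.642 and Cd163 between 0.238 and 0.793. Adgre1, Csf1r and Folr2 kept a positive sign in all 14 fits, and Cd5l and Mrc1 changed sign in 2 each.

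Adding the replicate number as a block left 0 genes called by limma, members included. The numbers name the samples, and the labels give no pairing. The deviations of same-numbered livers from their group means correlated at −0.058, −0.019 and −0.107 over genes. Those of differently numbered livers correlated at −0.047 to 0.105. With 3 livers per group, these values cannot show whether livers were paired. Few reads limit Marco and Cd163.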
